A study of Mus musculus with 6 samples.

Results

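Osteoclasts are the cells that dissolve bone, and 10 genes that mark them or carry their differentiation signal were followed here in RNA from bone endothelial cells (BECs) of female and male mice. They were chosen by name as rows of a table of 37991 genes: Acp5, Ctsk, Atp6v0d2, Dcstamp, Ocstamp, Oscar and Calcr, which mark the osteoclast, and Tnfsf11, Tnfrsf11a and Nfatc1, which encode the ligand RANKL, its receptor RANK and the transcription factor that the receptor switches on. The samples were 6 RNA-seq libraries, 3 from female and 3 from male c57/Bl6 mice (so spelled in the labels, and C57BL/6J in the study's methods) aged 12 weeks, with no treatment or genetic change named for either sex. The cells were taken fresh from the tibia according to the labels, and from tibiae and femurs according to the study's methods for BECs, and purified through endomucin, a surface protein of vessels that is not confined to endothelium. According to the study's methods, the samples with the best RNA quality were the ones sequenced. The labels do not say whether a library came from a single mouse or from several, so that p-values measure only the spread between these samples.

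Osteoclasts arise from blood-forming precursors of the monocyte and macrophage lineage. RANKL, made in bone by osteoblast-lineage and stromal cells and by lymphocytes, binds RANK on the precursor while osteoprotegerin (OPG, Tnfrsf11b) traps the ligand, and M-CSF acting through Csf1r keeps the precursor alive. RANK, together with receptors that pair with ITAM adaptors such as Oscar, raises NFATc1, which drives the genes for fusion of precursors into a multinucleated cell and for resorption. None of the 10 genes is a defining marker of endothelium, and which cells of the BEC preparation carried their transcripts was not tested.

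Total counts lay between 47678806 and 58325745 in female and between 49236654 and 50406097 in male libraries, and 3 counts, the smallest level taken as detectable in a library, corresponded to 0.0477 to 0.0639 CPM (counts scaled to library size by TMM, which corrects each library for its composition). This floor covers counting error only. Xist and the Y-linked Ddx3y, Eif2s3y, Kdm5d and Uty separated all libraries by their labelled sex. Endothelial markers were present in all libraries, with a sum over 10 genes of 205 to 313 CPM in females and 139 to 190 CPM in males, and markers of blood cells were also present, with sums of 5140 to 5390 against 3340 to 4540 CPM for 10 macrophage genes, 18700 to 22800 against 31700 to 43500 CPM for 12 neutrophil genes and 12100 to 17400 against 18400 to 27100 CPM for 8 erythroid genes. The 7 osteoclast markers among the members summed to 178 to 206 CPM in females and 145 to 163 CPM in males, of which Acp5, which macrophages also make, held 123 to 154 and 98.5 to 110 CPM.

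No member passed an adjusted p of 0.05 in the comparison of the sexes. The resorption enzymes Acp5 and Ctsk and the receptor RANK were higher in every female than in every male library, whereas RANKL, NFATc1 and the RANKL to OPG ratio overlapped between the sexes. The fusion gene Ocstamp and the proton pump subunit Atp6v0d2 had higher means in males, with overlapping libraries. Calcr was at or near 0 throughout.

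Because levels of different genes can only be compared per length, the normalised counts were also divided by annotated exon length, giving RPKM (normalised reads per kilobase of exon and library size). On this scale Acp5 was the most abundant member, with a median of 26.5 RPKM over the 6 libraries and a range of 22.4 to 35.0. Ctsk, at a median of 9.45 RPKM (5.58 to 10.7), and Nfatc1, at 9.41 RPKM (7.81 to 10.9), came next and did not differ beyond their spread. Ocstamp at 4.20 RPKM (2.82 to 5.99) and Atp6v0d2 at 2.84 RPKM (2.64 to 4.84) also overlapped each other. Tnfrsf11a, at 1.38 RPKM (1.13 to 1.60), stood below them in every library. Tnfsf11 at 0.739 RPKM (0.472 to 1.01) overlapped with Oscar at 0.117 RPKM (0.0542 to 0.608), and Oscar with Dcstamp, whose median was 0.107 RPKM (0.0274 to 0.275). Calcr was lowest, with a median of 0.00242 RPKM.

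**Figure D1:**
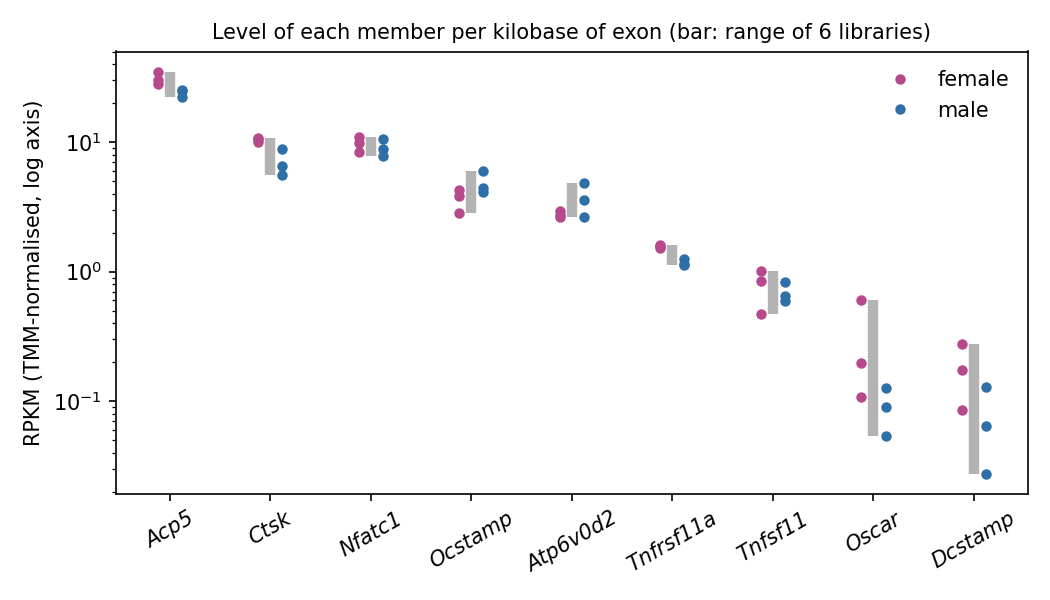
Level of 9 members in each of the 6 libraries in RPKM (TMM-normalised reads per kilobase of exon) on a log axis, with female and male libraries as separate points and the range as a bar; Calcr, with counts of 0 in 3 libraries, is not drawn. The ranges run from 22.4 to 35.0 RPKM for Acp5 down to levels below 1 RPKM for Oscar and Dcstamp.

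The enzymes of resorption came first. Acp5 (ENSMUSG00000001348, GRCm39 chr9:22038023-22049355, minus strand) encodes tartrate-resistant acid phosphatase, the enzyme stained to count osteoclasts, and is also made by some macrophages. Its level was 123, 154 and 131 CPM in female replicates 1 to 3 and 110, 98.5 and 108 CPM in male replicates 1 to 3. All female libraries lay above all male libraries, and the lowest female was female replicate 1. The mean was 136 ± 16.0 CPM in females and 106 ± 6.26 CPM in males (both SD, n = 3). Males over females, the log2 fold change was -0.36 (SE 0.12). In the quasi-likelihood test of edgeR its unadjusted p was 0.0140, and its p adjusted by the Benjamini-Hochberg method over 19480 genes was 0.357.

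Ctsk (ENSMUSG00000028111, GRCm39 chr3:95406178-95416732, plus strand) encodes cathepsin K, the protease that degrades bone collagen. Its level was 31.6, 29.7 and 31.3 CPM in female replicates 1 to 3 and 19.2, 16.4 and 26.0 CPM in male replicates 1 to 3. The females lay within a narrow band, the males were spread and all below it, and male replicate 3 was nearest to the females. The mean was 30.9 ± 1.04 CPM in females and 20.5 ± 4.90 CPM in males (both SD, n = 3). Its log2 fold change was -0.59 (SE 0.17) with an unadjusted p of 0.00541, and its edgeR adjusted p of 0.269 was the lowest of the members. Without male replicate 3 the log2 fold change was -0.79 and the edgeR adjusted p 0.0455, within a range of 0.0396 to 0.943 over all alternatives run.

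The promoters of both enzymes were searched in the 250 bases before each RefSeq start for the letters GGAAA (core of NFAT sites), TGANTCA (AP-1), GAGGAAG (PU.1), CACGTG and TCATGTG (both bound by MITF and other E-box factors), on both strands. The RefSeq table (GRCm38.p6) held starts for 6 members: Acp5, Calcr, Ctsk, Oscar, Tnfrsf11a and Tnfsf11. GAGGAAG was found in Ctsk and Oscar, at 2 of the 9 starts of the 6 members, and in 10.6% of the 32851 promoters in the table. GGAAA was found in Acp5, Calcr, Oscar and Tnfsf11, at 6 of the 9 starts, and in 55.6% of all promoters. TCATGTG was found before 1 start of Acp5 and in 3.25% of all promoters, while TGANTCA (6.75% of all) and CACGTG (6.02% of all) were in no member. These are matches of letters, and no binding was measured. The short stretches that hold the matches of Ctsk and of the innermost Acp5 start are shown because the factors named are regulators of both enzymes, and the Oscar promoter is shown because it held GGAAA at 3 positions as well as GAGGAAG. Each is written 5′ to 3′ on the strand of the gene, with matches in capitals. A match to the other strand reads as its reverse complement. The windows of Ctsk and of this Acp5 start also occur in full within annotated transcripts of GENCODE M39.
Ctsk, 233 bases before the start, chr3:95498966-95498994, plus strand, GAGGAAG: tcagacattttGAGGAAGaatggagacaa
Ctsk, 59 bases before the start, chr3:95499140-95499168, plus strand, GAGGAAG on the other strand: aaatgtgtgtcCTTCCTCcctaacccctc
Acp5, 117 bases before the start, chr9:22130700-22130726, minus strand, GGAAA on the other strand: ccccagccccaTTTCCagttctgggga
Acp5, 90 bases before the start, chr9:22130671-22130699, minus strand, TCATGTG on the other strand: agtccagtgctCACATGAcccaaggggag
Acp5, 37 bases before the start, chr9:22130620-22130646, minus strand, GGAAA on the other strand: aatgcatcatcTTTCCcaatgatgcac
Oscar, 250 bases before the start, chr7:3616158-3616407, minus strand, GGAAA and GAGGAAG on the other strand: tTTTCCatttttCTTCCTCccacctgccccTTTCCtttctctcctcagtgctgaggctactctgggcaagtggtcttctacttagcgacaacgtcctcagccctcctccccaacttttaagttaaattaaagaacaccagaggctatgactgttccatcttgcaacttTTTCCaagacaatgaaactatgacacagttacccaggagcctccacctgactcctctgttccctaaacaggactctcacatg

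Atp6v0d2 (ENSMUSG00000028238, GRCm39 chr4:19876838-19922614, minus strand) encodes the osteoclast form of a subunit of the proton pump that acidifies the resorption pit, and it also takes part in fusion. Its level was 7.19, 8.02 and 7.46 CPM in female replicates 1 to 3 and 9.66, 7.23 and 13.2 CPM in male replicates 1 to 3. Male replicates 1 and 3 lay above all females, and male replicate 2 lay among them. For Atp6v0d2 this gave a log2 fold change of 0.41 (SE 0.23), an unadjusted p of 0.102 and an edgeR adjusted p of 0.597. Without male replicate 3 the log2 fold change was 0.16. Of the 3 resorption genes among the members, Acp5 and Ctsk therefore had lower means in males and Atp6v0d2 did not.

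The fusion proteins showed no common direction either. Ocstamp (ENSMUSG00000027670, GRCm39 chr2:165235680-165242336, minus strand) and Dcstamp (ENSMUSG00000022303, GRCm39 chr15:39609214-39624334, plus strand) encode related membrane proteins, and mononuclear precursors that lack either one do not fuse. Ocstamp was at 15.7, 14.0 and 10.4 CPM in female replicates 1 to 3 and at 16.3, 22.0 and 15.1 CPM in male replicates 1 to 3. The only overlap was between female replicate 1 and male replicate 3. Its log2 fold change was 0.41 (SE 0.20), with an unadjusted p of 0.0681 and an edgeR adjusted p of 0.547. This value was 0.26 without female replicate 3 and 0.23 without male replicate 2.

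Dcstamp, by contrast, was low, with 16, 43 and 24 counts in female replicates 1 to 3 and 10, 4 and 18 counts in male replicates 1 to 3. In CPM these were 0.254, 0.814 and 0.511 in females and 0.190, 0.0812 and 0.379 in males, so that male replicate 3 lay above female replicate 1. Dcstamp had a log2 fold change of -1.27 (SE 0.69), with an unadjusted p of 0.0944 and an edgeR adjusted p of 0.591. The log2 value was -1.93 without male replicate 3 and -0.81 without female replicate 2. Per length Ocstamp was above Dcstamp in every library, with the ranges given above.

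Of the receptors on the osteoclast, Oscar (ENSMUSG00000054594, GRCm39 chr7:3612812-3620861, minus strand) encodes a collagen-binding receptor that signals through the ITAM adaptor Fcer1g. It had 26, 12 and 60 counts in female replicates 1 to 3 and 6, 13 and 9 counts in male replicates 1 to 3. In CPM these were 0.414, 0.227 and 1.28 in females and 0.114, 0.264 and 0.190 in males. Female replicate 3 stood high, and female replicate 2 lay below male replicate 2. Oscar had a log2 fold change of -1.74 (SE 0.72), with an unadjusted p of 0.0368 and an edgeR adjusted p of 0.466. Without female replicate 3 the log2 fold change was -0.76. Oscar overlaps the protein-coding gene Ndufa3 on the opposite strand, and whether reads were counted by strand is not given in the sources used here, so reads of the pair may not have been told apart.

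Calcr (ENSMUSG00000023964, GRCm39 chr6:3685680-3764714, minus strand) encodes the calcitonin receptor, a marker of the mature osteoclast through which calcitonin halts resorption. It had 4, 1 and 0 counts in female replicates 1 to 3 and 0, 0 and 6 counts in male replicates 1 to 3. Its level was therefore not detectable above the floor of 3 counts in 4 of the 6 libraries, of which the 3 with no count allow up to 0.0639 CPM in female replicate 3, 0.0569 CPM in male replicate 1 and 0.0609 CPM in male replicate 2. It was too low to be tested, and no fold is given. Calcr, Dcstamp and Oscar were the lowest of the 10.

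**Figure D2:**
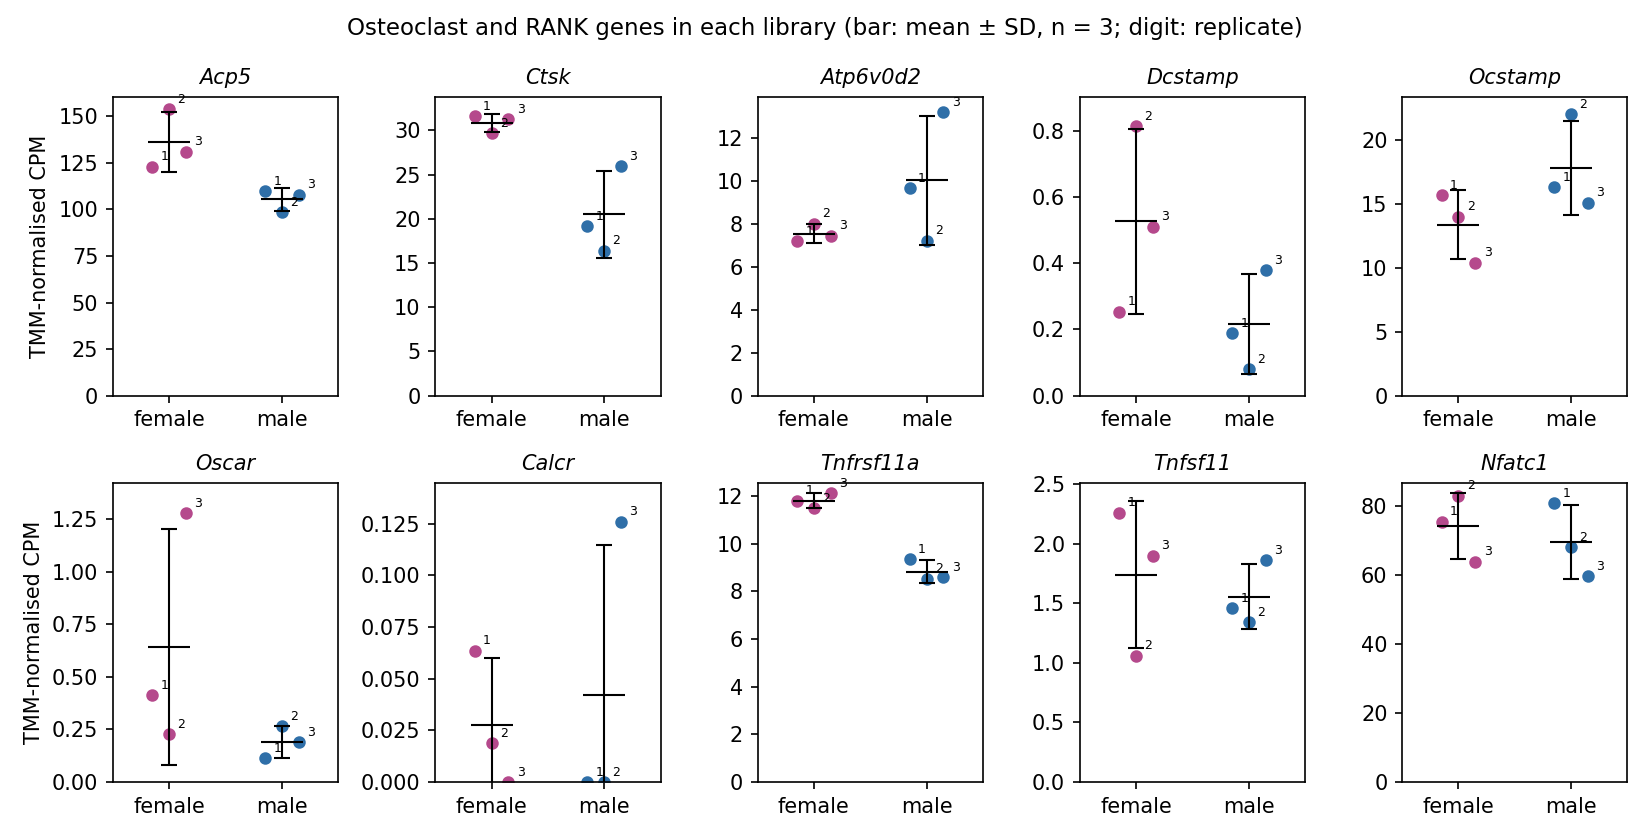
Level of each of the 10 members in TMM-normalised CPM in the 3 female and 3 male libraries, with the replicate number beside each point and the mean ± SD (n = 3) as a bar; each panel has its own linear axis from 0, where error bars are cut. All female points lie above all male points for Acp5, Ctsk and Tnfrsf11a, and the points of the sexes overlap for the other 7.

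The ligand and its receptors were then compared. Tnfsf11 (ENSMUSG00000022015, GRCm39 chr14:78514885-78545490, minus strand), which encodes RANKL, was at 2.26, 1.06 and 1.90 CPM in female replicates 1 to 3 and 1.46, 1.34 and 1.86 CPM in male replicates 1 to 3. The males lay within the range of the females. For Tnfsf11 the log2 fold change was -0.16 (SE 0.36), with an edgeR adjusted p of 0.915. Its decoy receptor Tnfrsf11b had only 26, 8 and 9 counts in female replicates 1 to 3 and 9, 11 and 12 counts in male replicates 1 to 3, and a log2 fold change of -0.24 (SE 0.63, edgeR adjusted p 0.935). RANKL counts exceeded OPG counts 5.38, 6.65 and 9.42 times in female replicates 1 to 3 and 8.16, 5.78 and 7.08 times in male replicates 1 to 3, with 0.5 added to each count. These ratios are not corrected for exon length (2243 bases for Tnfsf11 and 3013 for Tnfrsf11b), so they compare libraries and not the levels of the 2 genes. On the log2 scale the ratio was 2.80 ± 0.41 in females and 2.79 ± 0.25 in males (both SD, n = 3), with a two-sided exact permutation p of 1.0 in a design whose smallest p is 0.1. The difference of males minus females was 0.0, and it was 0.21 without female replicate 3 and 0.13 without male replicate 2. Lgr4, another receptor reported to bind RANKL, had a log2 fold change of -0.17 (SE 0.38, edgeR adjusted p 0.917).

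Tnfrsf11a (ENSMUSG00000026321, GRCm39 chr1:105708358-105777170, plus strand), which encodes RANK, was at 11.8, 11.5 and 12.1 CPM in female replicates 1 to 3 and 9.36, 8.53 and 8.58 CPM in male replicates 1 to 3. Both sexes lay within narrow bands that did not overlap. The mean was 11.8 ± 0.290 CPM in females and 8.82 ± 0.466 CPM in males (both SD, n = 3). The log2 fold change was -0.42 (SE 0.16), with an unadjusted p of 0.0215 and an edgeR adjusted p of 0.403, and whichever single library was omitted the log2 fold change lay between -0.47 and -0.40. The sexes were thus apart in every library for the receptor and intermixed for its ligand, and whether the 2 genes differ in this was not tested.

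Nfatc1 (ENSMUSG00000033016, GRCm39 chromosome 18), the master transcription factor behind RANK, was at 75.5, 83.0 and 63.9 CPM in female replicates 1 to 3 and 80.9, 68.1 and 59.6 CPM in male replicates 1 to 3. The sexes were intermixed. The log2 fold change was -0.09 (SE 0.15), with an edgeR adjusted p of 0.873. NFATc1 is also expressed in endothelial cells and lymphocytes.

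Counted together, 9 of the 10 members were tested and 0 passed an adjusted p of 0.05 in edgeR, as against 0.0411% of all genes tested. DESeq2 also called 0, but it gave no adjusted p for Oscar and Dcstamp. Without male replicate 3 edgeR called 1 member, Ctsk, among 96 of 19925 genes tested. At an unadjusted p under 0.05 in edgeR, 4 members were lower in males (Acp5, Ctsk, Oscar and Tnfrsf11a), where 4.76% of all genes were, and 0 were higher in males, where 5.03% of all genes were. Without female replicate 3 only Acp5 and Ctsk, 2 members, were below that p, in a refit whose own share of all genes is not given here. Oscar and Dcstamp reached the level needed for testing in all 3 female libraries but in only 1 and 2 of the male libraries, so a lower level in males was favoured by the filter for them. Of the 7 members that reached it in every library, 3 were lower in males at an unadjusted p under 0.05, and their median log2 fold change was -0.16, beside 0.0 over all genes tested. With Oscar and Dcstamp the median of the 9 was -0.36.

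In libraries that did not overlap, 3 members had every female above every male, where 7.29% of all genes did, and 0 had every male above every female, where 7.24% did. Groups that do not overlap stay so when a library is left out, so that this count can only grow. Leaving out female replicate 1 or male replicate 3 added Dcstamp (females higher) and Ocstamp (males higher), leaving out female replicate 2 added Oscar and Tnfsf11 (females higher), and leaving out male replicate 2 added Oscar (females higher) and Atp6v0d2 (males higher), for 5 members each time. The share of all genes with every female higher then rose to between 9.35 and 16.8%, and with every male higher to between 8.88 and 15.4%.

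The 3 genes that were higher in every female library are also expressed by macrophages and their precursors, and macrophage markers were lower in males too. All 10 macrophage markers had lower levels in males at an unadjusted p under 0.05 in edgeR, where 4.76% of all genes tested were, 7 of them with every female above every male, where 7.29% of all genes were, with a median log2 fold change of -0.42, and none was at 0. Other lists had medians below 0 too. Of the endothelial markers 7 of 10 were lower in males at that p, 3 of them without overlap (4.76% and 7.29% of all genes), with a median of -0.98, and of the osteoblast and stromal markers 3 of 9 were (Sp7, Alpl and Lepr), with a median of -0.23 and overlapping sums of 1360 to 2800 CPM in females and 1180 to 2250 CPM in males. The 6 megakaryocyte markers had a median of -0.62 with none at that p, the 6 T cell markers a median of -0.15 with 1 (Cd4) lower, and the 6 B cell markers tested a median of -0.04 with none lower and 1 (Pax5) higher. In the opposite direction, 5 of 8 erythroid markers were higher in males at that p (5.03% of all genes), with a median of 0.50. The macrophage marker Csf1r, the M-CSF receptor carried by osteoclast precursors and macrophages, was at 296, 291 and 253 CPM in female replicates 1 to 3 and 212, 169 and 205 CPM in male replicates 1 to 3. Its log2 fold change was -0.52 (SE 0.13, unadjusted p 0.00291, edgeR adjusted p 0.230, and 0.0284 to 0.922 over the alternatives run, the lowest from DESeq2's Wald test).

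All 9 tested members were also expressed per count of Csf1r in the same library, an alternative added after Csf1r was seen to be lower in males. Its own difference raises every ratio in males by about the same amount, so the ratios describe the members relative to Csf1r and say nothing of a source. Acp5 then stood at 0.415, 0.529 and 0.519 in female replicates 1 to 3 and at 0.521, 0.583 and 0.528 in male replicates 1 to 3. Ctsk stood at 0.107, 0.102 and 0.124 in females and at 0.0908, 0.0973 and 0.127 in males. Tnfrsf11a stood at 0.0400, 0.0396 and 0.0477 in females and at 0.0442, 0.0505 and 0.0419 in males. None of these 3 ratios separated the sexes, and the log2 differences of males minus females were 0.17 for Acp5, -0.09 for Ctsk and 0.10 for Tnfrsf11a. By the same measure the log2 difference was 0.89 for Atp6v0d2, 0.94 for Ocstamp, 0.43 for Nfatc1, 0.42 for Tnfsf11, -0.89 for Oscar and -0.81 for Dcstamp. Every male lay above every female for Atp6v0d2, Ocstamp and Nfatc1, while Tnfsf11, Oscar and Dcstamp overlapped. The share of all genes with every male higher per count of Csf1r was not computed. This scale favours such a separation, so it is not read as a trait of these members. In bulk RNA, fewer cells of a type and less RNA per cell cannot be told apart. The part of these cell types in the difference of Acp5, Ctsk and Tnfrsf11a was not tested.

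**Figure D3:**
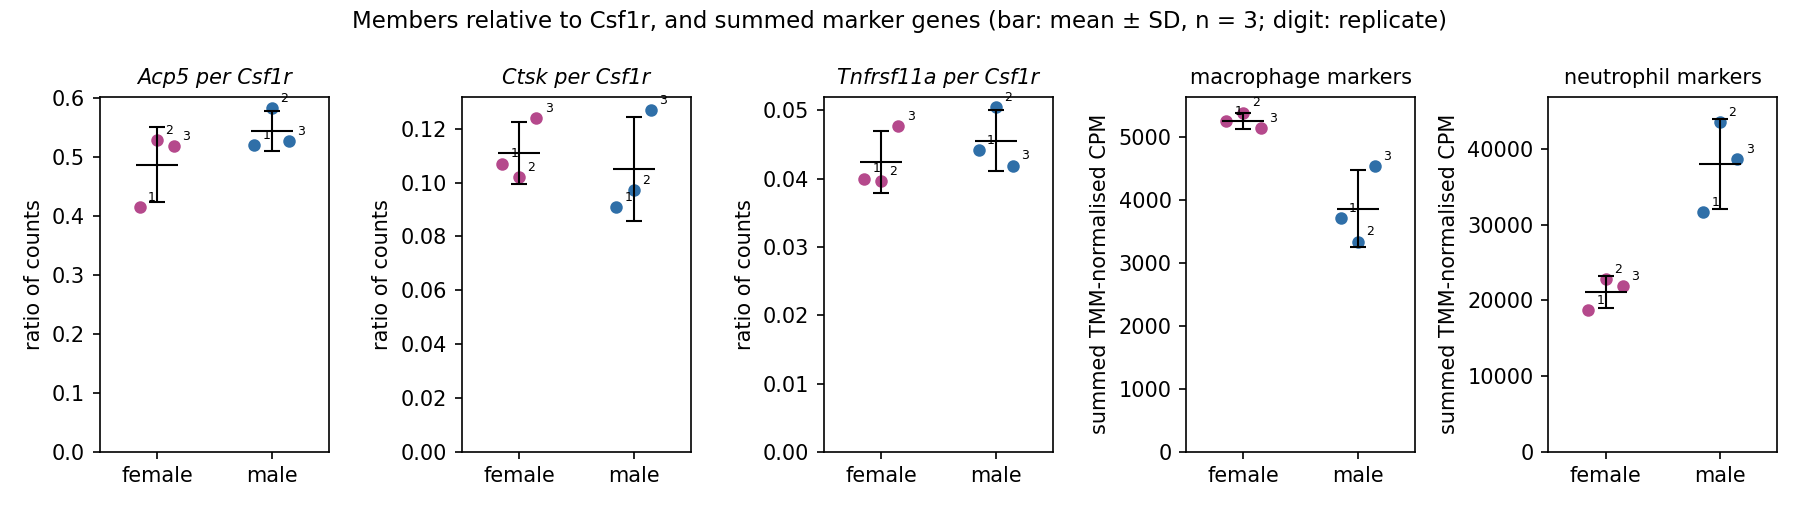
Counts of Acp5, Ctsk and Tnfrsf11a per count of Csf1r in the same library (3 panels) and the summed TMM-normalised CPM of 10 macrophage and 12 neutrophil markers (2 panels), as points per library with the replicate number and the mean ± SD (n = 3) as a bar, on linear axes from 0. The ratios of the sexes overlap for these 3 members, while macrophage markers lie between 5140 and 5390 CPM in females and 3340 and 4540 CPM in males.

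Around RANK itself, 28 genes of its signalling route were tested, and none passed an adjusted p of 0.05. At an unadjusted p under 0.05 in edgeR 2 of the 28 were lower in males, namely Tnfrsf11a and the kinase Src, which osteoclasts need to form their ruffled border, and 0 were higher, a count near the 4.76% and 5.03% of all genes tested. Src was at 14.2 ± 1.78 CPM in females and 9.25 ± 1.74 CPM in males (both SD, n = 3), which gave a log2 fold change of -0.62 (SE 0.19, unadjusted p 0.00761, edgeR adjusted p 0.308), with no overlap. The adaptors and the NF-kB subunit downstream were close to 0 in log2 fold change, at 0.10 (SE 0.15) for Traf6, which carries the signal from RANK, 0.0 (SE 0.13) for Traf3, which restrains it, and -0.14 (SE 0.13) for Nfkb1. With 1 library left out Nfkb1 lay between -0.23 and -0.07. The median log2 fold change of the 28 genes was -0.01.

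The ITAM costimulatory arm comprised 15 genes, 14 of which matched a row and were tested. At an unadjusted p under 0.05 in edgeR, Oscar was lower and Tyrobp, the adaptor DAP12, was higher in males, where 4.76% and 5.03% of all genes tested were. Tyrobp was at 395 ± 32.9 CPM in females and 522 ± 77.7 CPM in males (both SD, n = 3), with no overlap and a log2 fold change of 0.40 (SE 0.15, unadjusted p 0.0213, edgeR adjusted p 0.401). The log2 fold change was 0.03 (SE 0.13) for Fcer1g, the adaptor of Oscar, 0.27 (SE 0.24) for Trem2, a receptor that pairs with DAP12, and -0.07 (SE 0.15) for the phospholipase Plcg2. The median of the arm was 0.07.

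Among the 13 transcription factors of osteoclast differentiation and their repressors described here, 2 were higher in males at an unadjusted p under 0.05 in edgeR, where 5.03% of all genes tested were, and none passed the adjusted p. Fosl2, an AP-1 component, was at 44.4 ± 3.95 CPM in females and 71.5 ± 13.3 CPM in males (both SD, n = 3), with a log2 fold change of 0.69 (SE 0.15, edgeR adjusted p 0.132). Without male replicate 3 its log2 fold change was 0.80 with an edgeR adjusted p of 0.0455, within 0.00551 to 0.543 over all alternatives run. Spi1, which encodes PU.1, the factor of the myeloid lineage, had a log2 fold change of 0.36 (SE 0.14, unadjusted p 0.0297). Mitf, at -0.36 (SE 0.16), and Prdm1, which lifts repression of NFATc1 targets, at -0.39 (SE 0.20), were higher in every female than in every male library without reaching an unadjusted p of 0.05. The repressors Irf8, at -0.12 (SE 0.13), and Bcl6, at 0.19 (SE 0.17), overlapped. With 1 library left out Irf8 lay between -0.19 and -0.01 and Bcl6 between 0.01 and 0.33.

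Of 19 resorption genes, 3 were lower in males (Acp5, Ctsk and Src) and 1 was higher (Mmp9) at an unadjusted p under 0.05 in edgeR, where 4.76% and 5.03% of all genes tested were, with a median log2 fold change of -0.04 and none past the adjusted p. Mmp9, a gelatinase of osteoclasts that neutrophils also store, was at 488, 615 and 649 CPM in female replicates 1 to 3 and 873, 888 and 796 CPM in male replicates 1 to 3 (log2 fold change 0.55, SE 0.15, edgeR adjusted p 0.259, and 0.0218 to 0.933 over the alternatives run, the lowest from DESeq2's Wald test), and so stood opposite to Acp5 and Ctsk. Of the genes of acid secretion, Atp6v0d2 was described above, and the log2 fold change was 0.18 (SE 0.20) for the pump subunit Tcirg1, with 0.01 without female replicate 3 and 0.43 without female replicate 1, 0.11 (SE 0.11) for the chloride exchanger Clcn7, -0.05 (SE 0.11) for its partner Ostm1 and 0.03 (SE 0.20) for the carbonic anhydrase Car2. Clcn7 lay between 0.06 and 0.18 with 1 library left out. Itgb3, the integrin of the sealing zone that platelets and megakaryocytes also carry, was at -0.26 (SE 0.25). Its level was 54.8, 24.1 and 40.3 CPM in female replicates 1 to 3 and 37.9, 28.9 and 32.8 CPM in male replicates 1 to 3. The 6 megakaryocyte markers summed to 194, 50.4 and 114 CPM in these females and to 79.2, 37.3 and 99.9 CPM in these males. The order of the libraries was the same in females but not in males. The part of megakaryocytes in the values of Itgb3 was not tested.

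Among 8 fusion genes, 0 were lower and 2 were higher in males at an unadjusted p under 0.05 in edgeR, where 4.76% and 5.03% of all genes tested were, with a median of 0.22 and none past the adjusted p. Adam8, a membrane protease, was at 39.4 ± 3.06 CPM in females and 66.0 ± 14.6 CPM in males (both SD, n = 3), which gave a log2 fold change of 0.74 (SE 0.16, edgeR adjusted p 0.133). Without male replicate 3 its log2 fold change was 0.88 with an edgeR adjusted p of 0.0383, within 0.0041 to 0.502 over all alternatives run. Cd9, a tetraspanin, had a log2 fold change of 0.35 (SE 0.12, edgeR adjusted p 0.379), and Siglec15, a sialic acid receptor of fusing precursors with 6 to 24 counts a library, of 0.06 (SE 0.62). In the M-CSF axis 0 of 3 genes passed the adjusted p, and 1, Csf1r, was lower in males at an unadjusted p under 0.05 in edgeR, where 4.76% of all genes tested were. Its ligands Csf1 and Il34 had log2 fold changes of 0.05 (SE 0.24) and 0.44 (SE 0.41), and that of Il34 lay between 0.07 and 0.73 with 1 library left out. Of the 12 neutrophil markers, 9 were higher in males at an unadjusted p under 0.05 in edgeR (5.03% of all genes) and 10 had every male above every female (7.24% of all genes). None was at 0. Their part in the values of Mmp9, Adam8, Fosl2 and Tyrobp was not tested.

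**Figure D4:**
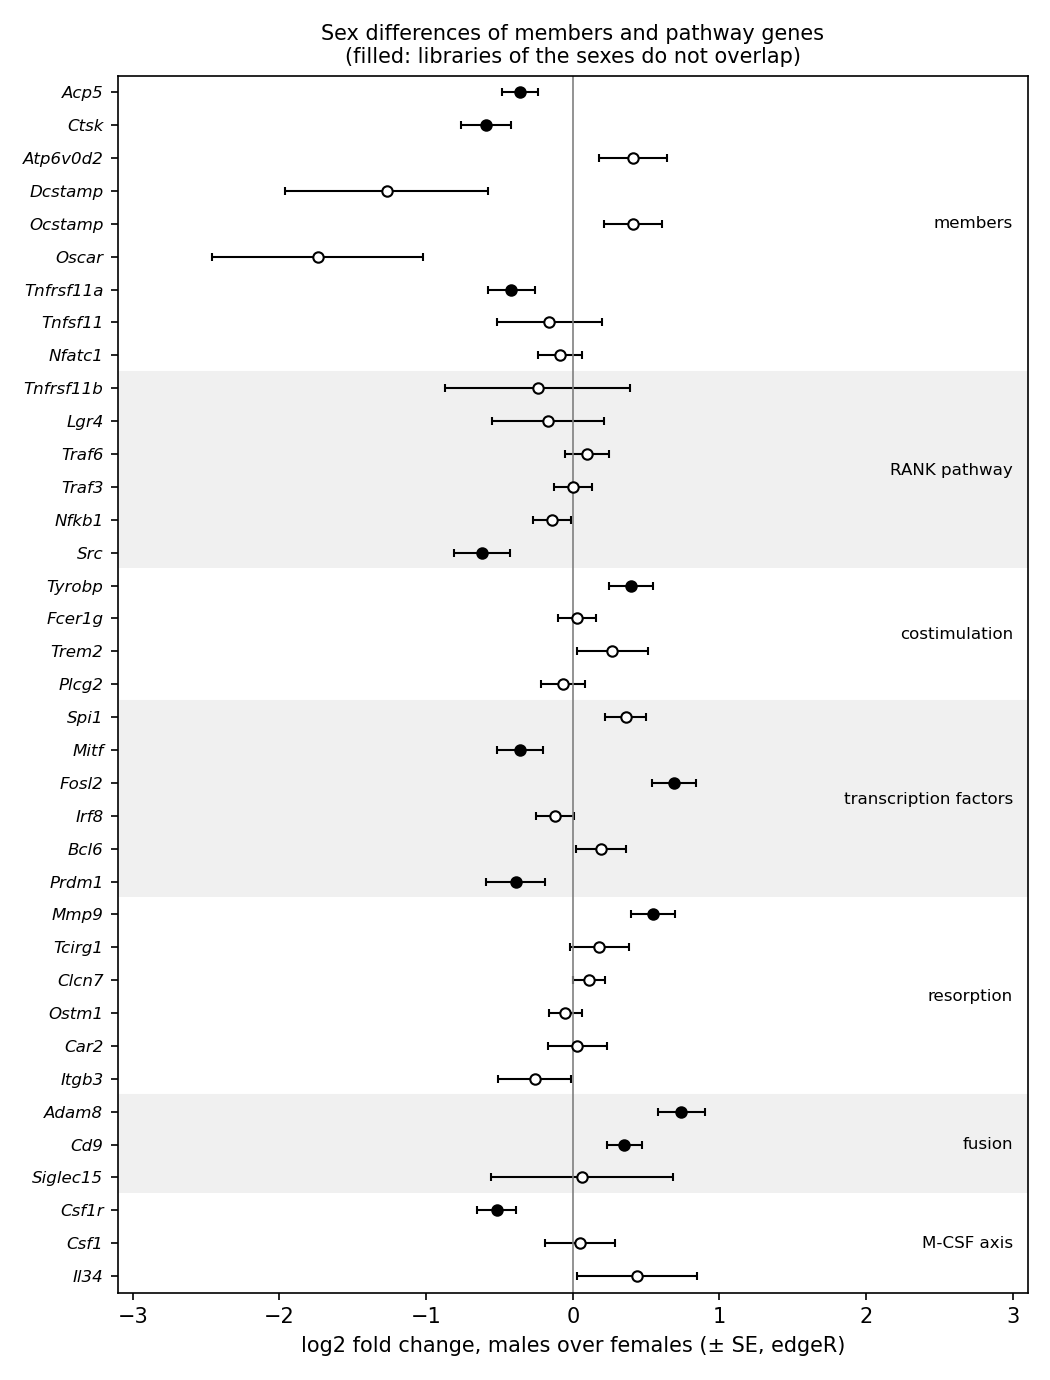
Log2 fold change of males over females ± SE (edgeR) for the 9 tested members and 28 further genes of RANK signalling, costimulation, transcription, resorption, fusion and the M-CSF axis, with filled points where the libraries of the sexes do not overlap. Acp5, Ctsk, Tnfrsf11a, Src, Mitf, Prdm1 and Csf1r are filled to the left of 0, and Tyrobp, Fosl2, Mmp9, Adam8 and Cd9 are filled to the right.

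For Acp5, the tested member with the most counts, the genes of most similar pattern were sought among 14923 genes by the root mean square difference of centred log2 CPM over the 6 libraries. They were Rrp12 (0.0181), which acts in ribosomal RNA processing, the endocytic scaffold Itsn1 (0.0364), the nucleolar protein Ncl (0.0447), Ppfibp2 (0.0453) and the mitochondrial carrier Slc25a10 (0.0517), against a range of 0.641 for Acp5 itself. None of these 5 genes is among the osteoclast or macrophage lists, but these lists are a small part of the 14923 genes searched. Their absence among 5 genes therefore says nothing on whether Acp5 follows those cells.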

How the data were processed

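Libraries were grouped by the labelled sex. The authors deposited whole-number read counts per gene, not normalised. Sources differ on their making: the study's methods name STAR, featureCounts and GRCm39 with total RNA libraries and 100-nucleotide reads, whereas the submitters' notes name TopHat2 2.0.11, featureCounts, mm9 and NCBIM37, and the labels polyA RNA and 40-nucleotide reads. The table held no identifier numbered above 93789, although 47216 genes of GENCODE M39 are, so its annotation was older. GENCODE M39 (GRCm39) gave names, positions and exon lengths for 31073 of 37991 identifiers, holding 96.2% of counts. Overlapping genes and newer exons can therefore shift counts and lengths.

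Counts were fitted with edgeR 4.0.16 (R 4.3.3; filterByExpr with a minimum of 10 counts, TMM, robust quasi-likelihood, no covariate) over 19480 genes, checked on simulated data. Alternatives were DESeq2 1.42.0, other scalings and filters, a replicate block and each library left out. On the simulated data DESeq2 called more unchanged genes, and the limit set on their share was applied to the edgeR fits only. RPKM is the TMM-scaled CPM per kilobase of exon. Named genes were the members, fixed pathway genes, up to 4 further genes a list with an unadjusted p under 0.05, no overlap and the smallest p, and the 5 genes nearest to Acp5; an item of the transcription factor list is not reported here. Members and lists were chosen with earlier results of these data known.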

Additional observations from a re-analysis of the deposited data

How the results depend on the processing

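Of 473 values of 37 named genes under the alternatives, 431 kept their direction and their side of an adjusted p of 0.05, 12 kept their direction and newly passed it, and 30 changed sign, none of them of a gene with an unadjusted p under 0.05. The ratios to Csf1r are not in this tally, and with them the log2 difference went from -0.36 to 0.17 for Acp5 and from -0.42 to 0.10 for Tnfrsf11a, and also changed sign for Tnfsf11 (0.42) and Nfatc1 (0.43). Because Csf1r was itself lower in males, this scale raises every ratio in males. Sign changes of values slightly below 0 therefore follow from the scale. The number of genes called among all tested was 8 in edgeR as reported, 359 by DESeq2's Wald test, 98 with no filter on low counts, 14 with total counts alone, 6 with at least 10 counts in every library, 428 with a replicate block and 5 to 96 with 1 library left out (96 without male replicate 3).

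The count of members at an adjusted p under 0.05 was 0 to 1 with 1 library left out, and the count at an unadjusted p under 0.05 was 2 to 4. Members without overlap numbered 3 to 5. With DESeq2's Wald test 1 transcription factor, 1 resorption gene, 1 fusion gene and 1 gene of the M-CSF axis passed, namely Fosl2, Mmp9, Adam8 and Csf1r. With no filter 1 transcription factor (Fosl2) and 1 fusion gene (Adam8) passed. With 1 library left out each of the lists of transcription factors, resorption and fusion genes had 0 to 1 called. The cause of these shifts was not tested.

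Replicate numbers 1 to 3 are shared by the sexes. The correlation of same-numbered libraries in their deviations was 0.194, 0.0402 and 0.298, and male replicate 2 correlated best with female replicate 1 (0.131), so the numbers were not taken as pairs. With the replicate block 1 member (Ctsk, log2 fold change -0.61), 1 transcription factor (Fosl2), 1 resorption gene (Ctsk again) and 1 fusion gene (Adam8) passed.

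The RANKL to OPG difference lay between -0.19 and 0.21 with 1 library left out. Log2 fold changes that changed sign in this way ran from -0.42 to 0.08 for Tnfsf11, -0.22 to 0.0 for Nfatc1, -0.50 to 0.34 for Tnfrsf11b, -0.57 to 0.13 for Lgr4, -0.05 to 0.20 for Traf6, -0.10 to 0.07 for Traf3, -0.20 to 0.26 for Csf1, -0.08 to 0.10 for Fcer1g, -0.10 to 0.49 for Trem2, -0.22 to 0.03 for Plcg2, -0.11 to 0.02 for Ostm1, -0.20 to 0.21 for Car2, -0.52 to 0.05 for Itgb3 and -0.23 to 0.59 for Siglec15. Traf3 was also at 0.0 with DESeq2's Wald test, DESeq2 size factors, at least 10 counts in every library and the replicate block, and at 0.01 with genes over 1 percent of a library left out. At 4 to 60 counts a library, depth limited Oscar and Dcstamp, and Calcr could not be fitted.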
